A study of Mus musculus with 30 samples.

Results

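Retinas of mouse pups with oxygen-induced retinopathy (OIR) were compared after an intravitreal injection of ECFC or of CD34+ cells at postnatal day (P) 12. The 6 retinas were all those whose titles name ECFC alone or CD34 alone at P12, 3 in each group, of 30 retinas in the series. Per the labels, pups were kept in 75% oxygen from P7 for 5 days, injected at P12 on return to room air, and collected at P17. ECFC pups received 100000 cells and CD34+ pups 10000 cells, so cell type and cell number cannot be told apart. Further groups of 3 retinas, used here beside the comparison, received 110000 cells of both types at P12 or saline at P12, and 6 more received ECFC or CD34+ cells at P5 before the oxygen. All these pups had the same oxygen exposure. The fit that gave the standard errors and p-values also held 3 retinas of each further group of the series. These were saline at P5, 110000 cells of both types at P5, OIR without treatment and normoxia without treatment. The normoxia pups had no such oxygen exposure. The labels give P17 as the stage of the P5 retinas as well, whereas the series design pairs injection at P5 with collection at P12. The labels do not give the species or passage of the injected cells, and the probes of the array are those of mouse genes. Each retina came from a separate pup, and 1 array was run for each.

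ECFC, or endothelial colony-forming cells, are progenitors that grow into endothelium in culture. CD34 is a surface antigen of haematopoietic progenitors and of endothelium. In OIR, high oxygen stops the growth of retinal vessels and prunes the capillaries. The return to room air then leaves the inner retina hypoxic. HIF targets such as the growth factor Vegfa rise, glia become reactive, and tufts of new vessels grow toward the vitreous. The comparison of the cell types asks which retinal transcripts differ according to the cells that were injected.

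Values are the authors' log2 expression values, and differences are ECFC minus CD34+ on that scale, with the standard error (SE) of the limma fit, n = 3 retinas per group. The 6 arrays had medians of 8.33, 8.24 and 8.23 in ECFC retinas and 8.24, 8.36 and 8.36 in CD34+ retinas. Their interquartile ranges were 3.39, 3.03 and 3.20 in ECFC retinas and 3.21, 3.40 and 3.35 in CD34+ retinas. ECFC replicate 2 therefore had the narrowest spread of values. Correlations between arrays ran from 0.984 to 0.993 among ECFC retinas, from 0.993 to 0.995 among CD34+ retinas and from 0.984 to 0.996 between the groups. Xist was high in 1 retina of each group, which makes 1 female pup in each. The tissue label was met by its markers: the 19 measured rod genes averaged 12.89, 12.87 and 12.89 in ECFC retinas and 12.87, 12.89 and 12.84 in CD34+ retinas. The hybridisation controls of the 12 P12 arrays lay above those of the other arrays, so no level is set across the injection days.

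No mouse transcript was called different between ECFC and CD34+ retinas at P12. Of 22626 probe sets, 0 (0%) passed an adjusted p of 0.05 in limma, and the lowest adjusted p was 0.951. With only the 6 arrays compared in the limma fit, 0 passed as well, and the lowest adjusted p was 0.341. At an unadjusted p under 0.05 there were 854 probe sets (3.77%), 302 with a higher mean in ECFC retinas and 552 with a lower one. Differences were small: 135 probe sets passed 1.5-fold and 4 passed 2-fold. The 95% interval of the difference lay within 2-fold either way for 21820 probe sets (96.4%) and within 1.5-fold for 17579 (77.7%). The groups did not overlap for 2265 probe sets (10.01%), of which 784 were higher in ECFC retinas. An exact permutation test of 3 against 3 retinas cannot give a two-sided p below 0.1. With array weights in the fit, which let the arrays differ in precision, 1968 probe sets passed, 690 higher and 1278 lower in ECFC retinas. That fit gave ECFC replicate 3 a weight of 3.53 and ECFC replicates 1 and 2 weights of 0.55 and 0.48.

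The differences moved with the level of the probe set. Split by mean level into 3 groups of 7542 probe sets, the median difference was 0.07 in the dimmest, -0.07 in the middle and -0.05 in the brightest group. After quantile normalization these medians were 0.01, -0.02 and -0.01. Over all probe sets the median difference was -0.03, with quartiles of -0.12 and 0.08, and 57.5% were negative. The counts of gene lists below are set beside those values. The lists held 699 measured genes, counting 4 of a sex-linked list kept out of the 44 groups below, and 0 of their members were called. After quantile normalization some list medians shrank, such as endothelial (-0.16 to -0.10) and unfolded protein response (-0.15 to -0.10). Others changed little, such as tip cell (-0.18 to -0.17) and pericyte and mural (-0.16 to -0.15). The barrier list went from -0.12 to -0.14.

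**Figure D1:**
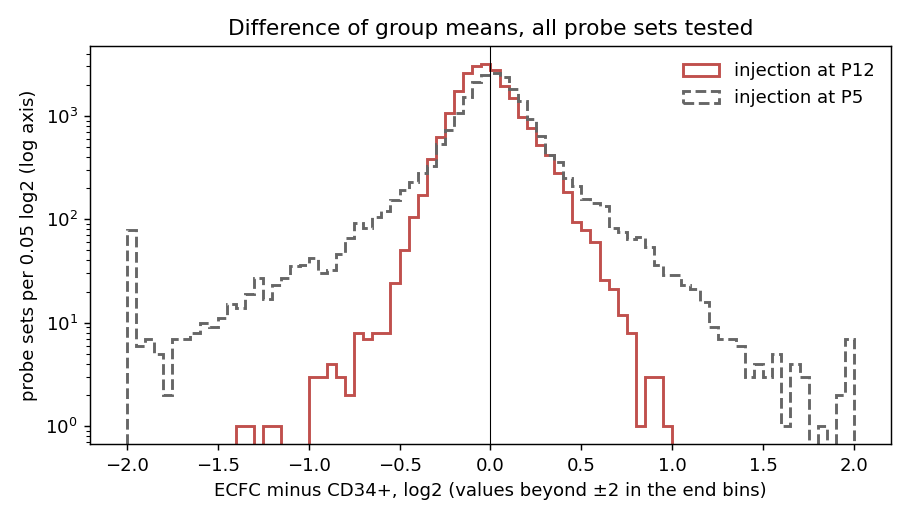
Distribution of the log2 difference ECFC minus CD34+ over 22626 probe sets (x axis, log2; y axis, probe sets per bin, log scale), for injection at P5 (dashed) and at P12 (solid). The P12 differences were narrower, with 4 probe sets past 2-fold against 515 at P5.

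Among the angiogenic ligands, Vegfa, the main hypoxia-induced endothelial growth factor, read 10.25, 10.65 and 10.53 in ECFC retinas and 10.42, 10.74 and 10.91 in CD34+ retinas. The difference was -0.22 ± 0.18 (95% interval -0.58 to 0.15), and the groups overlapped. A second probe set of Vegfa gave 0.11. Angpt2, the Tie2 ligand that loosens vessel walls, read 7.63, 8.72 and 8.01 in ECFC retinas and 8.03, 8.95 and 8.99 in CD34+ retinas. Its difference of -0.53 ± 0.31 (-1.16 to 0.10) did not pass, and 1 retina of each group departed from its partners. Pdgfb, the endothelial signal that recruits pericytes, differed by 0.03 ± 0.17 (-0.32 to 0.37), and its second probe set by -0.11. The 10 VEGF ligands and receptors had a median of -0.05, with 6 of them negative, and every interval lay within 2-fold.

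Tip cells lead a vessel sprout. Of 16 tip cell genes, 14 had a negative difference, and the list median was -0.18. Esm1, a secreted proteoglycan of tip cells, read 5.41, 7.14 and 6.20 in ECFC retinas and 5.93, 6.35 and 7.41 in CD34+ retinas, a difference of -0.31 ± 0.48 (-1.29 to 0.67). Apln, the ligand of the apelin receptor, read 7.94, 9.65 and 8.62 in ECFC retinas and 8.49, 9.39 and 9.36 in CD34+ retinas, a difference of -0.35 ± 0.35. The spread inside each group exceeded the difference for both genes. Without ECFC replicate 2 the list median was -0.34, and without ECFC replicate 3 it was -0.08.

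Endothelial genes gave values of the same size. Of 24 measured, 20 were negative, the median was -0.16, and all 24 intervals lay within 2-fold. Tie1, an endothelial receptor tyrosine kinase, read 6.93, 6.29 and 6.51 in ECFC retinas and 6.59, 7.16 and 7.36 in CD34+ retinas, a difference of -0.46 ± 0.21 (-0.89 to -0.02). Its unadjusted p in limma was 0.0406 and its adjusted p 0.951. CD34+ replicate 1 lay among the ECFC retinas. Pecam1, the junctional adhesion molecule, differed by -0.21 ± 0.17, and Cdh5, the cadherin of endothelial junctions, by -0.06 ± 0.19. Without CD34+ replicate 1 the endothelial median was -0.26, and without CD34+ replicate 3 it was -0.07. In bulk retina, fewer cells of a type and less RNA per cell cannot be told apart.

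Pericytes wrap the capillaries and stabilise them. Of 20 pericyte and mural genes, 17 were negative, with a median of -0.16. The median was -0.06 without CD34+ replicate 3 and -0.24 without ECFC replicate 2. Rgs5, a regulator of G-protein signalling abundant in pericytes, read 12.40, 12.66 and 12.35 in ECFC retinas and 12.60, 12.51 and 12.54 in CD34+ retinas, a difference of -0.08 ± 0.16 (-0.43 to 0.26). Pdgfrb, the receptor for Pdgfb, differed by -0.13 ± 0.17, and Cspg4, the NG2 proteoglycan, by -0.19 ± 0.18. A second probe set of Cspg4 gave 0.003. Cnn1, a contractile protein of smooth muscle, ran the other way at 0.31 ± 0.19. The 28 basement membrane and matrix genes had a median of -0.15, with 21 negative, and the same arrays left out gave -0.07 and -0.24. Col3a1, a fibrillar collagen, read 8.05, 8.32 and 8.31 in ECFC retinas and 8.44, 8.79 and 9.32 in CD34+ retinas. The groups did not overlap, and the difference was -0.62 ± 0.40 (-1.44 to 0.20).

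Signals that shape and seal vessels gave intervals of similar width. Of 14 blood-retina barrier and norrin genes, 12 were negative and the median was -0.12. It was -0.24 without CD34+ replicate 1 and -0.07 without CD34+ replicate 3. Tspan12, a tetraspanin of the norrin receptor complex, read 7.23, 6.79 and 6.83 in ECFC retinas and 7.10, 7.52 and 7.37 in CD34+ retinas, a difference of -0.38 ± 0.21 (-0.82 to 0.05). ECFC replicate 1 lay within the CD34+ range. Of 24 TGF-beta and BMP genes, 17 were negative and the median was -0.09. Id1, a BMP-induced repressor of differentiation, read 7.12, 7.12 and 7.56 in ECFC retinas and 7.45, 7.80 and 7.76 in CD34+ retinas, a difference of -0.40 ± 0.19 (-0.80 to -0.00). Its relative Id3 read 8.73, 8.88 and 8.96 in ECFC retinas and 9.16, 9.19 and 9.18 in CD34+ retinas, a difference of -0.32 ± 0.16. Id3 separated the groups, and Id1 did not. The 15 Notch pathway genes had a median of 0.00, and every interval lay within 2-fold.

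**Figure D2:**
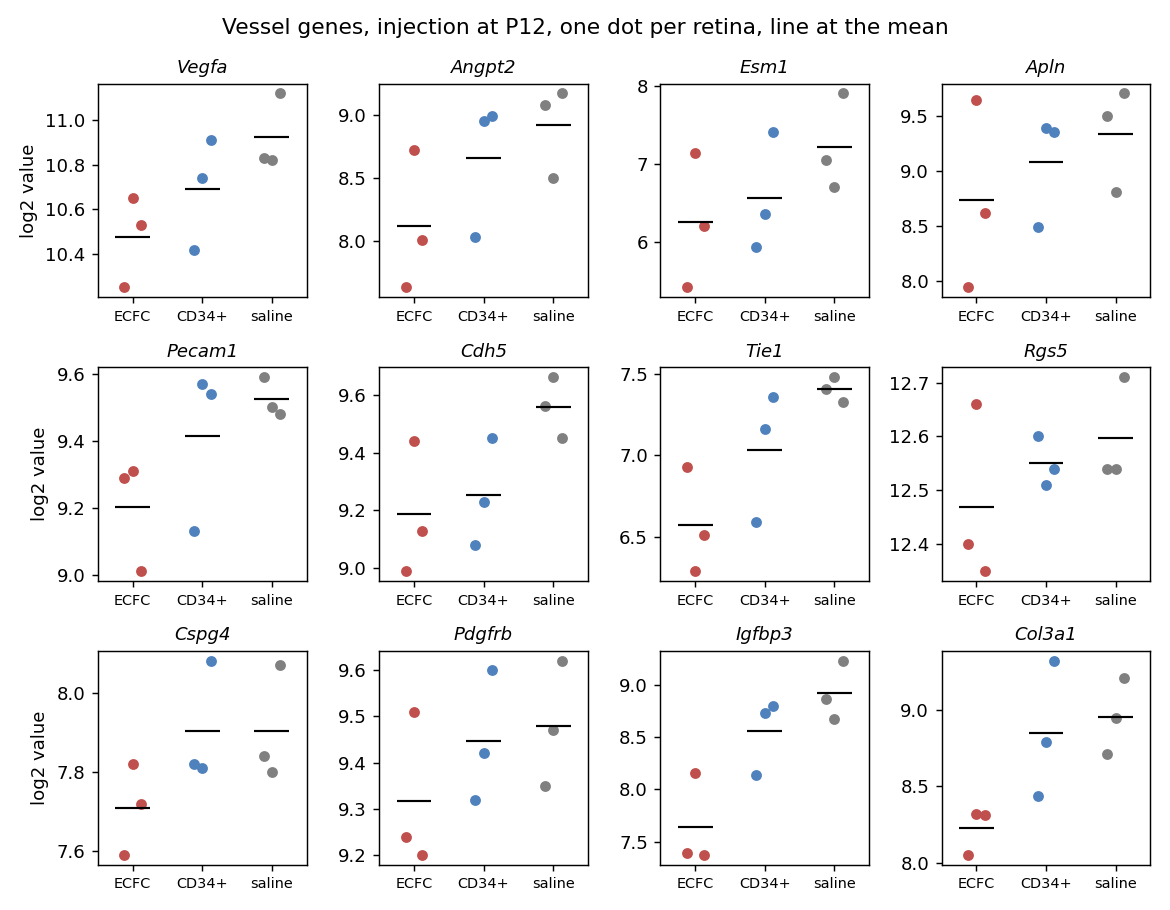
Log2 values of 12 vessel and matrix genes in each P12 retina (dots) with group means (lines), for ECFC, CD34+ and saline. Y axes differ between genes. Dots of the ECFC and CD34+ groups overlap for most genes, and Igfbp3 has 1 ECFC retina at 8.16 beside a lowest CD34+ value of 8.14.

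Insulin-like growth factors act on vessel growth in the young retina, and their binding proteins carry them. Igfbp3, the gene of the IGF list with the most negative difference, read 7.39, 8.16 and 7.37 in ECFC retinas and 8.14, 8.73 and 8.80 in CD34+ retinas. The difference was -0.92 ± 0.40 (-1.75 to -0.08), with an adjusted p of 0.951 in limma. ECFC replicate 2 stood at the level of the lowest CD34+ retina, and without it the difference was -1.18. Of 31 HIF targets and glycolysis genes, 22 were negative and the median was -0.07. It was -0.01 without ECFC replicate 1 and -0.13 without ECFC replicate 2. Hk2, the hexokinase that starts glycolysis, read 11.14, 11.42 and 11.22 in ECFC retinas and 10.92, 11.04 and 11.15 in CD34+ retinas, a difference of 0.22 ± 0.14. Bnip3, a mitophagy receptor induced by HIF, differed by -0.19 ± 0.13. Neither passed.

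Of 25 cell cycle genes, 21 were negative, with a median of -0.12. The median was -0.04 without ECFC replicate 1, -0.06 without CD34+ replicate 3 and -0.20 without ECFC replicate 2. At an unadjusted p under 0.05, 4 had a negative and 1 a positive difference, beside 3.77% of all probe sets in either direction. Rrm2, the subunit of ribonucleotide reductase that makes deoxynucleotides in S phase, read 6.65, 7.14 and 6.90 in ECFC retinas and 7.36, 7.88 and 8.28 in CD34+ retinas. The groups did not overlap, and the difference was -0.94 ± 0.30 (-1.57 to -0.32). Birc5, the mitotic protein survivin, read 6.24, 5.96 and 6.0 in ECFC retinas and 6.54, 6.80 and 6.77 in CD34+ retinas, a difference of -0.64 ± 0.22 (-1.09 to -0.19). Mcm6, part of the replicative helicase, differed by -0.37 ± 0.14. Tyms, thymidylate synthase, ran the other way at 0.38 ± 0.14, with values of 5.52, 5.20 and 5.56 in ECFC retinas and 5.10, 5.00 and 5.05 in CD34+ retinas. Each of these 4 had an adjusted p of 0.951 in limma. The other probe sets of Rrm2 gave -0.53 and -0.09, those of Tyms 0.23 and 0.07, and that of Mcm6 -0.23. All values given for Tyms and Birc5 lay below 6.90, the 30th percentile of probe set means.

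Genes of the unfolded protein response, which help the endoplasmic reticulum fold its load, had a median of -0.15, with 21 of 25 negative, and of -0.09 without CD34+ replicate 3. Creld2, a secreted chaperone-like protein induced by such stress, read 10.27, 10.12 and 10.19 in ECFC retinas and 10.51, 10.58 and 10.71 in CD34+ retinas. All ECFC retinas lay below all CD34+ retinas, and the difference was -0.41 ± 0.12 (-0.65 to -0.16). Pdia6, a disulfide isomerase, read 9.51, 9.32 and 9.40 in ECFC retinas and 9.67, 9.68 and 9.97 in CD34+ retinas, a difference of -0.36 ± 0.12. Hspa5, the chief chaperone of that compartment, differed by -0.18 ± 0.09. None of the 25 was called. The 13 heat shock genes had a median of 0.01.

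Housekeeping lists shifted by little. Of 26 respiratory chain genes 24 were negative, with a median of -0.08, and all 26 intervals lay within 2-fold. Of 22 proteasome genes 20 were negative, with a median of -0.09, and of 16 ribosomal protein genes 15, also with a median of -0.09. Across the alternatives that kept every array of the comparison, the respiratory chain median ran from -0.08 to -0.02. The proteasome median ran from -0.09 to -0.04 and the ribosomal protein median from -0.13 to -0.04. Splicing genes had a median of 0.05, with 17 of 25 positive. Gpx1, a glutathione peroxidase of the antioxidant list, read 10.53, 10.57 and 10.54 in ECFC retinas and 10.66, 10.88 and 11.03 in CD34+ retinas, a difference of -0.31 ± 0.12 (-0.56 to -0.06). It separated the groups and was not called.

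Genes of reactive glia had wide intervals. Gfap, the intermediate filament of reactive glia, read 9.05, 9.29 and 9.25 in ECFC retinas and 9.50, 9.26 and 10.88 in CD34+ retinas, a difference of -0.68 ± 0.72 (-2.17 to 0.81). CD34+ replicate 3 alone stood high. Of 23 gliosis and stress genes, 20 were negative and the median was -0.18, and without CD34+ replicate 3 the median was 0.11. For 9 of the 23 the interval lay within 2-fold. Lcn2, a lipocalin of reactive glia and neutrophils, read 9.62, 6.41 and 7.08 in ECFC retinas and 6.91, 6.90 and 8.09 in CD34+ retinas, a difference of 0.40 ± 1.13. Here ECFC replicate 1 stood high. The 18 Muller glia genes had a median of 0.03.

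All 12 measured neutrophil genes had a positive difference, with a median of 0.25. An unadjusted p under 0.05 was reached by 3 of them, beside 3.77% of all probe sets. The list averaged 6.65, 6.44 and 6.27 in ECFC retinas and 6.23, 6.03 and 6.18 in CD34+ retinas. S100a9, a calcium-binding protein of neutrophil granules, read 9.30, 7.94 and 7.37 in ECFC retinas and 7.39, 7.42 and 7.42 in CD34+ retinas, a difference of 0.79 ± 0.35 (0.07 to 1.51). ECFC replicate 1 carried most of it, and without that retina the difference was 0.24. Leaving out ECFC replicate 3 gave 1.21. S100a8, its binding partner, read 7.03, 5.62 and 5.45 in ECFC retinas and 5.48, 5.50 and 5.39 in CD34+ retinas. Ngp, a granule protein, was instead highest in ECFC replicate 2, at 4.71, 5.47 and 4.43 in ECFC retinas and 4.69, 4.38 and 4.2 in CD34+ retinas. The list median was 0.18 after quantile normalization and 0.13 without ECFC replicate 2, the array of narrowest spread. The averages of the neutrophil list lay below 6.90, the 30th percentile of probe set means, and the dimmest group of probe sets had a median of 0.07. The cornea and iris epithelium list, which averaged 6.78, 7.15 and 6.99 in ECFC retinas, had 9 of 10 genes positive and a median of 0.10. The part of spread and level in the neutrophil shift was not tested further.

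Other immune lists had smaller medians. T and NK cell genes had a median of 0.12 (11 of 14 positive), interferon and antigen presentation genes 0.10 (22 of 27 positive), and microglia and macrophage genes 0.08 (13 of 22 positive). Complement genes had a median of 0.03, chemokine and cytokine genes 0.04 and lysosomal and phagocytic genes -0.04, with 9 of 12 negative. The microglia and macrophage median was -0.10 without ECFC replicate 1 and 0.19 without ECFC replicate 2. The T and NK cell median was 0.06 without CD34+ replicate 2 and 0.23 without ECFC replicate 1. The interferon median was 0.18 without CD34+ replicate 3, and the lysosomal median turned to 0.03 without it. Cx3cr1, the fractalkine receptor of microglia, read 7.66, 6.87 and 7.09 in ECFC retinas and 7.40, 7.50 and 7.58 in CD34+ retinas, a difference of -0.28 ± 0.23. Gpnmb, a glycoprotein of phagocytes, differed by 0.20 ± 0.53. None passed.

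Neuronal lists had medians between -0.11 and 0.08. The rod median was 0.02, the cone median 0.01, the synapse median 0.02, the amacrine median 0.03 and the bipolar median 0.08. The ganglion cell median was -0.11, with 11 of 13 negative, and the horizontal cell median was also -0.11, with 6 of 8 negative and 1 of them at an unadjusted p under 0.05. Gap43, a growth cone protein, read 10.03, 9.96 and 10.22 in ECFC retinas and 10.26, 10.31 and 10.37 in CD34+ retinas, a difference of -0.24 ± 0.24. Markers of tissue that dissection can bring along varied by retina. The 15 lens genes averaged 6.23, 7.23 and 6.37 in ECFC retinas and 7.14, 6.88 and 6.26 in CD34+ retinas, and 0 of the 15 intervals lay within 2-fold. Pigment epithelium genes had a median of -0.20, with 9 of 14 negative. That median was -0.02 without CD34+ replicate 2 and -0.07 without ECFC replicate 1.

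**Figure D3:**
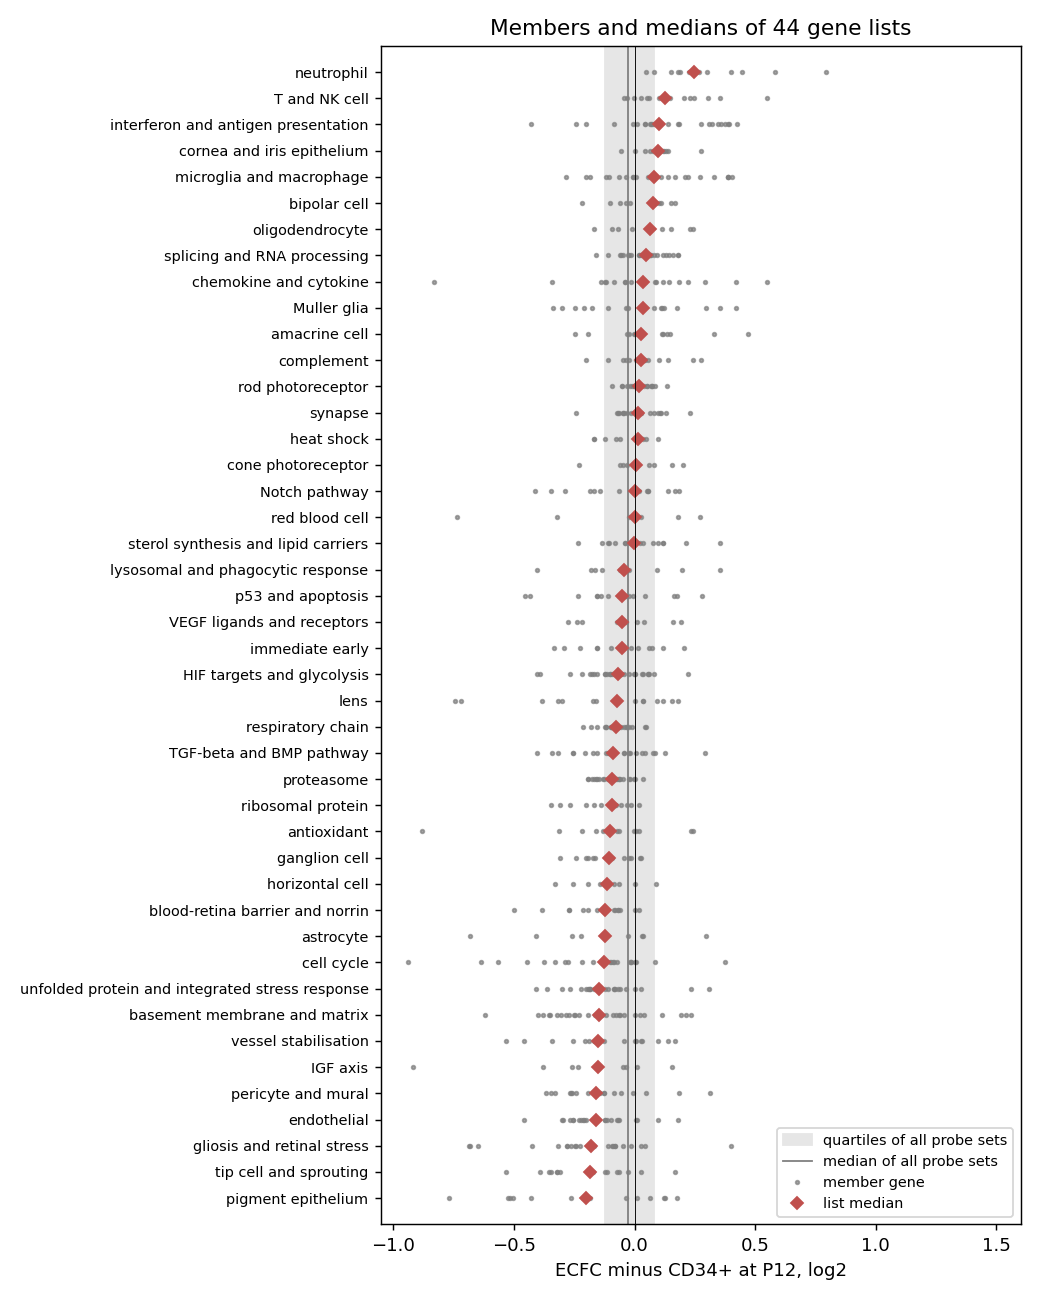
Log2 difference ECFC minus CD34+ at P12 for each measured member (grey dots) and the median (diamonds) of 44 gene lists (rows), with the median and quartiles of all probe sets (grey line and band). Medians run from -0.20 for pigment epithelium to 0.25 for neutrophil genes.

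The genes with the smallest p in each direction are given as values, since none was called. Col19a1, a fibril-associated collagen, read 8.35, 8.35 and 8.05 in ECFC retinas and 7.68, 7.84 and 7.53 in CD34+ retinas, a difference of 0.57 ± 0.13 (0.30 to 0.84). Deptor, an inhibitor of mTOR, read 9.33, 10.07 and 9.86 in ECFC retinas and 9.35, 9.14 and 9.01 in CD34+ retinas, a difference of 0.58 ± 0.18. Col19a1 separated the groups, and Deptor had ECFC replicate 1 within the CD34+ range. Dnm2, the dynamin of endocytosis, differed by 0.40 ± 0.13, although 4 of its other 6 probe sets were negative. Nemf, a factor of ribosome quality control, differed by 0.44 ± 0.15, and Tgfa, a ligand of the EGF receptor, by 0.41 ± 0.14.

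On the negative side, Fabp7, a fatty acid binding protein of glial progenitors, read 8.48, 8.23 and 8.73 in ECFC retinas and 9.34, 9.75 and 9.29 in CD34+ retinas, a difference of -0.98 ± 0.27 (-1.54 to -0.42). Actc1, cardiac alpha-actin, read 7.13, 6.75 and 7.11 in ECFC retinas and 7.78, 7.77 and 7.81 in CD34+ retinas, a difference of -0.79 ± 0.21 (-1.22 to -0.36). Myl4, a myosin light chain, differed by -0.61 ± 0.16, and its second probe set by 0.26. Lrrc46 differed by -0.40 ± 0.12. Fabp7 and Actc1 separated the groups without overlap, as did 10.01% of all probe sets.

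**Figure D4:**
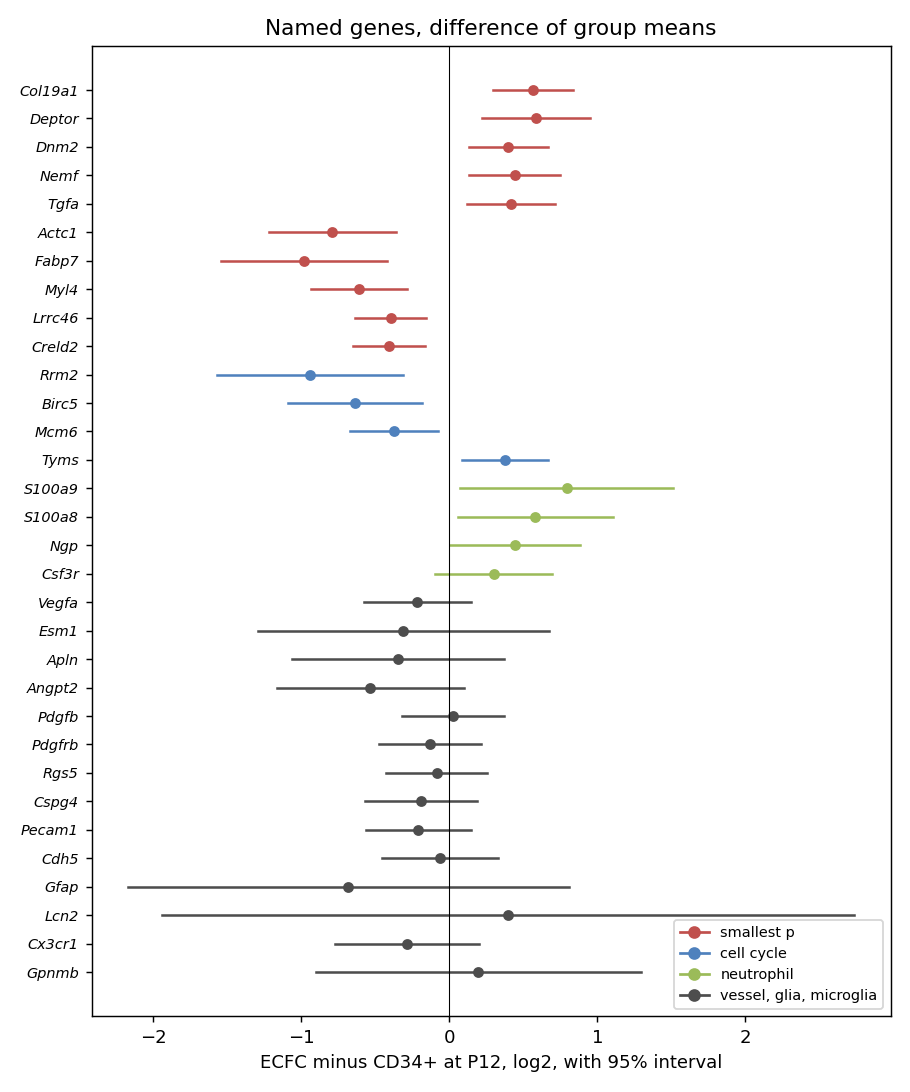
Log2 difference ECFC minus CD34+ at P12 (dots) with its 95% interval (lines) for genes with the smallest p, cell cycle, neutrophil and vessel, glial or microglial genes. Intervals of the vessel, glial and microglial genes drawn here include 0, and the widest belong to Lcn2 and Gfap.

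Saline and the combination at P12 gave levels from the same set of arrays. Against saline, limma called 0 probe sets (0%) for ECFC, with 3899 (17.2%) at an unadjusted p under 0.05 and a lowest adjusted p of 0.0524. It called 0 (0%) for CD34+ cells, with 1275 (5.64%) at an unadjusted p under 0.05. Both comparisons share the saline retinas. The saline arrays had interquartile ranges of 3.41, 3.46 and 3.43, above those of all ECFC and CD34+ arrays at P12. The part of this spread in the 2 shares at an unadjusted p under 0.05 was not tested. Vegfa read 10.83, 10.82 and 11.12 in saline retinas, above all 3 ECFC values. Rrm2 read 7.82, 7.54 and 6.90 after the combination and 7.36, 8.47 and 8.0 in saline retinas. Fabp7 averaged 8.78 after the combination and 9.15 in saline retinas, between the ECFC and CD34+ values.

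Injection at P5 gave a wider difference between the cell types. In ECFC against CD34+ retinas, limma called 1487 probe sets (6.57%), 909 higher and 578 lower in ECFC retinas. The fit pools the spread over all 30 arrays, so its standard errors take no account of a day or group that varied more. Residual SDs around the group mean were 0.216, 0.158 and 0.267 in P5 ECFC arrays and 0.379, 0.291 and 0.204 in P5 CD34+ arrays. At P12 they were 0.214, 0.226 and 0.134 in ECFC arrays and 0.167, 0.151 and 0.139 in CD34+ arrays. Of 13 ganglion cell genes, 11 were called higher in P5 ECFC than in P5 CD34+ retinas. The list median was 1.36 against -0.11 at P12. Gpnmb was lower in P5 ECFC retinas (adjusted p 0.00432 in limma). It read 8.5, 7.33 and 9.55 in ECFC, 12.63, 10.52 and 10.28 in CD34+ and 7.66, 9.45 and 7.58 in saline retinas at P5. The ganglion cell gene Gap43 read 10.71, 10.42 and 10.45 in ECFC, 8.95, 9.88 and 9.23 in CD34+ and 10.07, 10.72 and 10.69 in saline. For both genes the P5 CD34+ retinas lay apart from the ECFC and saline retinas, which overlapped. At P5, 8 of 12 bipolar and 6 of 13 amacrine cell genes were also called higher in ECFC than in CD34+ retinas. Of 14 pigment epithelium genes, 7 were called lower in P5 ECFC retinas, with a list median of -1.67. The part of adhering tissue in the P5 difference was not tested. The test of the P12 difference minus the P5 difference called 5 probe sets (0.0221%), all negative. Oprm1, the mu opioid receptor on chromosome 10, read 6.41, 6.40 and 6.49 in P5 ECFC retinas and 5.33, 5.69 and 5.50 in P5 CD34+ retinas. At P12 it read 6.71, 6.67 and 6.74 in ECFC retinas and 7.02, 6.94 and 6.81 in CD34+ retinas. The P12 difference was -0.21, the P5 difference 0.93, and the difference between them -1.14 ± 0.19 (adjusted p 0.0365 in limma). Socs2, an inhibitor of growth hormone and cytokine signalling, read 8.96, 8.80 and 8.73 in P5 ECFC retinas and 8.03, 8.15 and 8.07 in P5 CD34+ retinas. At P12 it read 8.96, 8.88 and 8.77 in ECFC retinas and 8.77, 9.15 and 8.95 in CD34+ retinas.

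For each of the 5 probe sets, the 3 P5 CD34+ retinas lay below the 3 P5 ECFC retinas, values that entered the test by which the probe sets were chosen. The called probe sets of Nrg3 and Socs2 were not those of highest mean for their genes. The lens genes of those P5 CD34+ retinas averaged 7.51, 13.99 and 13.88, against 9.70, 8.81 and 9.40 in the P5 ECFC retinas. With the lens mean as a covariate the test called 447 probe sets, and with only the 12 arrays compared it called 0. Gpnmb and the ganglion cell gene Gap43 did not pass the test between days, at adjusted p of 0.0949 and 0.0716 in limma.

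**Figure D5:**
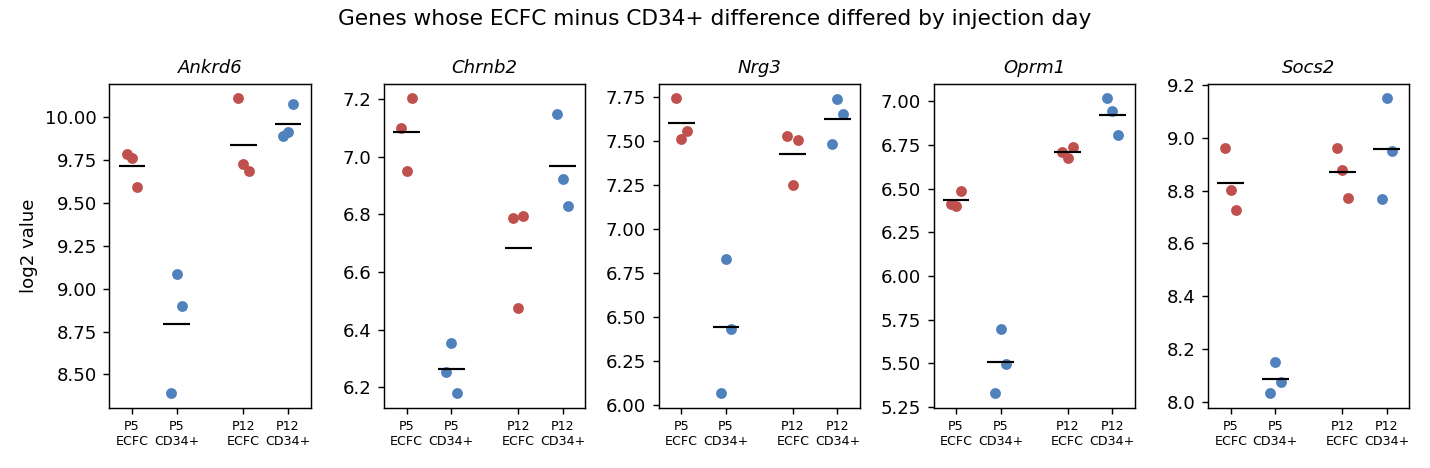
Log2 values of the 5 probe sets called in the test between injection days, by retina (dots) with group means (lines), for ECFC and CD34+ at P5 and at P12. The P5 CD34+ retinas lie below the P5 ECFC retinas for each probe set.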

How the data were processed

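The authors deposited log2 values, already normalized, for every probe set on every array. Partek appears in the submitters' processing notes, and no version, summarisation or normalization method is given there. Per the labels' protocols, 100 ng of total RNA from 1 retina per pup was amplified and biotin-labelled. Values were used as deposited. Of 22690 probe sets, 64 were controls; 20380 of the rest had 1 gene symbol, 691 several and 1555 none. A gene was represented by its probe set of highest mean (12393 genes). limma 3.58.1 in R 4.3.3 fitted 1 mean per group to all 30 arrays (20 residual degrees of freedom), two-sided, with Benjamini-Hochberg adjustment over 22626 probe sets and calls at 0.05. The fit was tested on simulated data. Precision was limited by having 3 arrays per group.

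Genes named were the 5 of smallest p in each direction above a level of 6.90 (none being called), up to 4 per list by moderated t, and a fixed set of vessel, glial and immune genes. Members and lists were chosen with earlier results of these data known. Same-numbered retinas did not deviate together (correlations -0.33, 0.04 and 0.12 at P12), so numbers were not taken as pairs. Alternatives covered scaling, filters, variance model, array weights, covariates, array subsets and single arrays left out.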

Additional observations from a re-analysis of the deposited data

Results flagged for a closer look

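5 probe sets, each of a different gene, had an ECFC minus CD34+ difference that differed between injection at P12 and at P5, by limma's test of the difference itself. Those of Nrg3 and Socs2 were not the probe sets of highest mean that represent their genes elsewhere here. The representing probe sets of Nrg3 and Socs2 were not called. The P12 difference minus the P5 difference was -1.04 for Ankrd6, an ankyrin repeat protein on chromosome 4, -1.10 for Chrnb2, a nicotinic receptor subunit on chromosome 3, -1.35 for Nrg3, a neuregulin on chromosome 14, -1.14 for Oprm1 and -0.83 for Socs2, both on chromosome 10. Chromosomes are those of GRCm38.p6. At P12 the differences of the called probe sets were -0.12, -0.28, -0.20, -0.21 and -0.09, and at P5 they were 0.92, 0.82, 1.16, 0.93 and 0.74, in the same order.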

How the results depend on the processing

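The count of probe sets called between ECFC and CD34+ retinas at P12 was 0 under each alternative run except array weights, with 1968, and leaving out CD34+ replicate 1. Leaving out each array in turn gave 0 to 1 calls, the 1 being Myh3, an embryonic myosin heavy chain named after its values were seen. Its difference was -2.13 without that array (adjusted p 0.00457 in limma) and -1.35 with all. The replicate block gave 0. The count of the test between injection days, 5, was 3 with 1 probe set per gene, 46 after quantile normalization, 21 after median centring, 19 without dim probe sets, 34 with trend and robust settings, 7362 with array weights, 31 with the replicate block, 0 with only the arrays compared, 60 with Xist, 182 with hybridisation controls and 447 with the lens mean as covariate. It ran from 0 to 671 as each array was left out, and was 0 without ECFC replicate 2 and a combination retina, whose interquartile ranges were the narrowest at P12, an alternative chosen after seeing the data. The cause of these moves was not tested. Of the medians of gene lists, a sex-linked list included, 29 values moved by more than the spread between replicates and 601 did not. The trend and robust settings, the replicate block and the array subsets cannot change a difference of group means, so their values could not move. Leaving out ECFC replicate 2 with the combination retina repeats, for this difference, leaving out ECFC replicate 2. The 601 is therefore not a measure of stability. With 3 retinas per group, a lone probe set of median SE would have needed a difference of 0.906 to be called.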
